A study of Mus musculus with 12 samples.

Results

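The integrated stress response was followed through the mRNA of 10 genes in mouse colonoids, which are organoids grown from colonic epithelial stem cells. The genes were chosen by name: *Eif2ak1*, *Eif2ak3*, *Eif2ak4*, *Atf4*, *Atf5*, *Ddit3*, *Trib3*, *Ppp1r15a*, *Ppp1r15b* and *Chac1*. Of the 54532 rows of the expression table, 11 carry one of these symbols. The additional row is a second *Ddit3* entry of 105 bases (ENSMUSG00000116429) that lies wholly inside the first and is listed at 0 in every library, so 10 genes are described, and all 10 passed the filter on low values.

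In the integrated stress response, kinases that each sense a different stress phosphorylate the α subunit of the translation initiation factor eIF2. General protein synthesis then slows while a few mRNAs, *Atf4* among them, are translated more, and ATF4 in turn drives genes of amino acid supply, redox balance and cell fate. *Eif2ak1* encodes HRI, the kinase that free heme inhibits, *Eif2ak3* encodes PERK, the sensor of the endoplasmic reticulum, and *Eif2ak4* encodes GCN2, the sensor of uncharged tRNA. mRNA levels do not show kinase activity, eIF2α phosphorylation or ATF4 protein, none of which was measured in these libraries.

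The study exposed colonoids to hemin, the chloride of ferric heme, to ask how the epithelium responds to heme when heme oxygenase-1, the enzyme that breaks heme down, is deleted. Colonoids came from mice of 8 to 12 weeks that carried floxed *Hmox1* alleles without Cre (control, Hmox1 fl/fl) or with Cre under the *Vil1* promoter, which is active in intestinal epithelium (labelled KO, Hmox1ΔIEC), and received vehicle or 200 µM hemin for 24 hours. Each of the 4 groups has 3 libraries of poly-A RNA. Per the study's methods the floxed mice were C57BL/6 and the Cre transgene came from a B6 congenic line. The sources used here do not tie the replicates to separate animals or cultures, so p-values measure only the spread between these libraries, which may be technical.

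Depth ran from 11648801 to 25101868 fragments assigned to genes, the hemin-treated controls being the smallest libraries. *Hmox1* was lower in the libraries labelled KO only under vehicle, 2.96-fold against control. Under hemin, against the label, its mean rose to 456 FPKM (fragments per kilobase of gene length, scaled for depth) in control and to 1314 FPKM in those labelled KO. The FPKM counts fragments over the whole gene, also outside the floxed part, so it does not show how complete the deletion was. Genotypes are named below by their labels. The labels also write the genotype of hemin-treated replicate 3 labelled KO with floxed alleles and Cre, unlike the other libraries labelled KO. Hemin-treated control replicate 3 stood farthest from the other libraries of its group (root mean square distance 0.484 on the log2 scale, against 0.185 to 0.357 elsewhere), and the noncoding gene *Gm23935* took 16.8%, 29.0% and 21.05% of the summed FPKM in control vehicle replicate 1, control hemin replicate 1 and hemin-treated replicate 2 labelled KO, against at most 2.81% in the other libraries. All 12 epithelial markers were at 1 FPKM or more in every vehicle-treated library, and 11 in every hemin-treated one. Their summed FPKM was 10480 to 11300 and 13590 to 14540 in control with vehicle and hemin, and 7119 to 7170 and 10210 to 11900 in those labelled KO; its part in the results was not tested. Markers of single epithelial cell types moved with the groups beneath that sum. The goblet cell mucin *Muc2* had means of 104, 58.5, 72.5 and 6.41 FPKM in control with vehicle, control with hemin and those labelled KO with vehicle and hemin, and the stem cell receptor *Lgr5* 2.45, 0.78, 2.36 and 0.277 FPKM. In the same order the intestinal transcription factor *Cdx2* had 202, 204, 48.7 and 82.3 FPKM and the enteroendocrine *Chga* 7.37, 6.76, 36.7 and 28.4 FPKM. The colonocyte markers *Car1* (2129, 4918, 1314 and 2849 FPKM) and *Krt20* (173, 296, 106 and 286 FPKM) were higher with hemin in both genotypes. Of the 12 epithelial markers, 5 were higher and 7 lower with hemin in control, and 8 and 4 in those labelled KO. The part of these markers in the results was not tested either. The summed fibroblast, immune, endothelial and erythroid markers stayed below 1 FPKM in every library. In bulk RNA, fewer cells of a type and less RNA per cell cannot be told apart.

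Differences were tested in 1 limma model of the 4 groups on log2(FPKM + 1), a scale that understates the change of genes at low FPKM. A gene passed at an adjusted p under 0.05 over the 12740 tested genes, and was called if its log2 fold change was also above 1 or below −1. Hemin raised 7 of the 10 genes in colonoids labelled KO and lowered 1, whereas in control colonoids it raised 3 and lowered 3. Among all tested genes, 29.9% passed as higher and 30.4% as lower in colonoids labelled KO, and 23.2% and 26.7% in control. Over the 10 genes the log2 fold changes had a median of 0.57 in colonoids labelled KO, against a median of all tested genes of −0.0019, and −0.04 in control, against −0.01. Called under hemin were 3 of the 10 genes in colonoids labelled KO, all higher (4.87% of tested genes were called as higher), and in control *Chac1* as higher (2.17%) and *Trib3* as lower (5.93%).

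With vehicle alone, the colonoids labelled KO held less than control of the mRNAs of these genes other than the kinases. Under vehicle 7 of the 10 passed as lower, where 16.8% of tested genes passed as lower and 17.4% as higher. The other 3 were the kinases *Eif2ak1* (−0.13, adjusted p = 0.189), *Eif2ak3* (−0.05, adjusted p = 0.666) and *Eif2ak4* (0.05, adjusted p = 0.747). The 4 called were *Trib3*, *Chac1*, *Atf5* and *Ddit3*, all lower, against 3.27% of tested genes called as lower. Under hemin only 3 of the 10 differed between the labelled genotypes, *Ppp1r15a* higher (19.7% of tested genes passed as higher) and *Atf5* and *Ddit3* lower (14.7% passed as lower), with *Atf5* alone called (2.91% called as lower). The interaction, which is the hemin response of colonoids labelled KO minus that of control, passed for 5 of the 10 and was positive in each (13.3% of tested genes passed as positive). It was called for *Trib3*, *Chac1* and *Ppp1r15a* (2.57% called as positive). The hemin responses and the genotype comparisons share groups, so their values are set side by side and are not independent of each other. The FPKM of hemin- and vehicle-treated libraries did not overlap for 6 of the 10 genes in control and 8 in colonoids labelled KO, against 52.4% and 74.4% of tested genes. The genotypes did not overlap for 9 under vehicle and 3 under hemin, against 57.5% and 40.9%. Without hemin-treated control replicate 3, 8 rather than 6 of the genes passed in the control response, 5 rather than 3 between the hemin-treated genotypes and 6 rather than 5 in the interaction, and the called counts stayed at 2, 1 and 3. After rescaling to TPM, which sets the summed FPKM of every library to the same total, 4 rather than 6 passed in control (1 higher, *Chac1*, and 3 lower) and 4 rather than 8 in colonoids labelled KO (3 higher, *Ddit3*, *Trib3* and *Chac1*, and 1 lower). Under vehicle 4 rather than 7 then passed, the same 4 that were called, and 3 rather than 5 in the interaction.

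**Figure D1:**
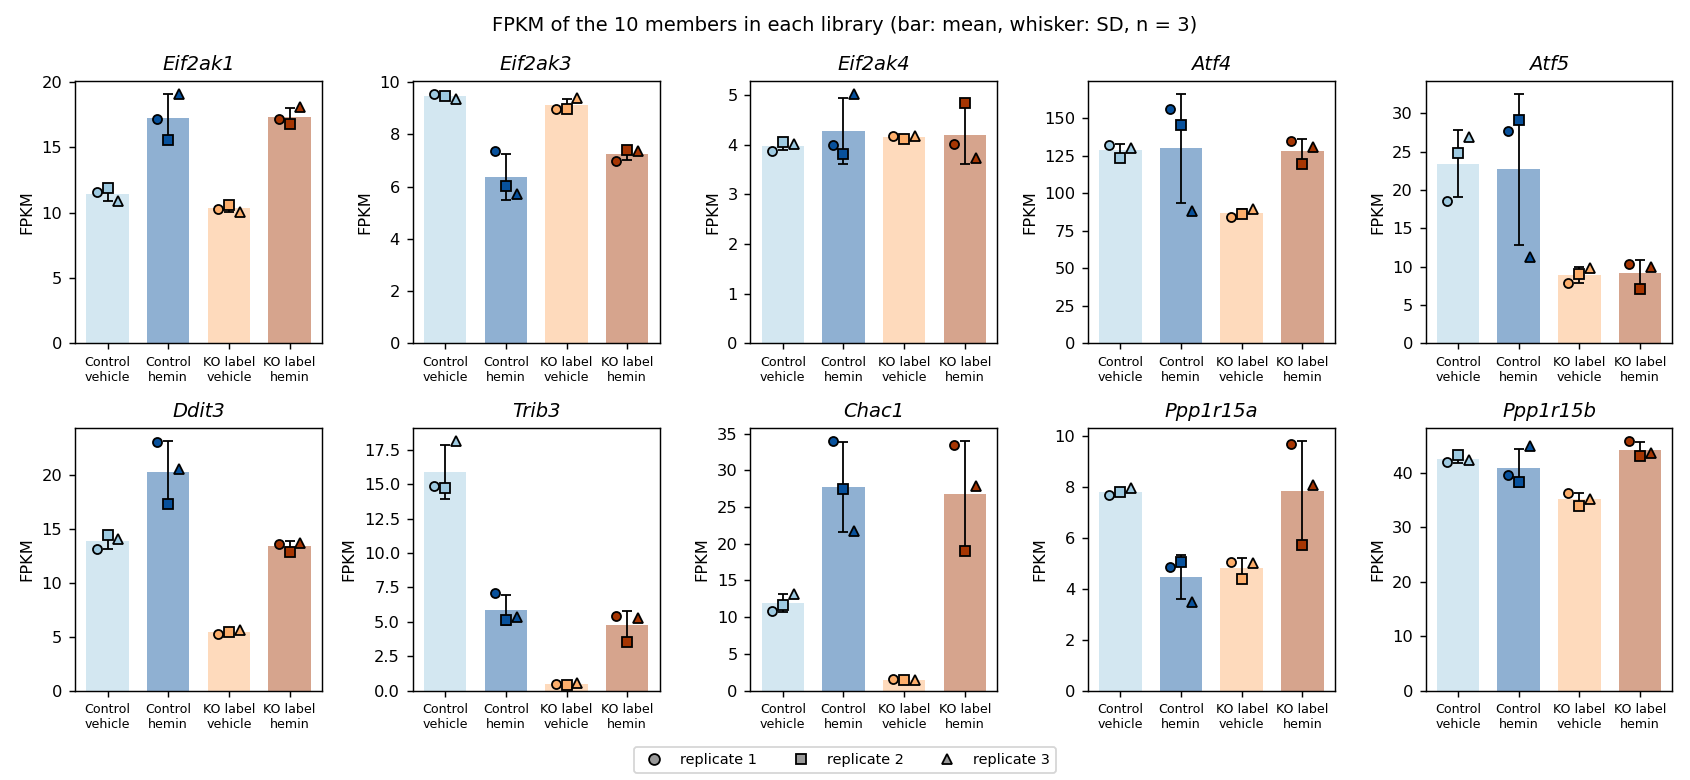
FPKM of the 10 integrated stress response genes (y axes, linear, each from 0) in the 12 libraries of the 4 groups (x axis). Symbols are replicates 1 to 3, bars the group mean and whiskers the SD (n = 3); *Trib3* and *Chac1* are near 0 in the 3 vehicle-treated libraries labelled KO, where *Trib3* was 0.408 to 0.531 FPKM and *Chac1* 1.38 to 1.61 FPKM.

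*Eif2ak1* (HRI, ENSMUSG00000029613) is annotated on chromosome 5 of mm10 from 143817788 to 143904251 on the plus strand, with 15 exons in its first listed transcript. Its FPKM was 11.6, 11.9 and 10.9 in control libraries with vehicle and 17.2, 15.5 and 19.1 with hemin. In libraries labelled KO it was 10.3, 10.6 and 10.1 with vehicle and 17.2, 16.8 and 18.1 with hemin. All 6 hemin-treated libraries lay above all 6 vehicle-treated ones. The mean rose 1.51-fold in control (log2 fold change 0.55, SE 0.07, adjusted p = 9.47e-05) and 1.68-fold in colonoids labelled KO (0.70, SE 0.07, adjusted p = 1.06e-05). The responses were not found to differ, with an interaction of 0.14 on the log2 scale (95% confidence interval −0.08 to 0.37, adjusted p = 0.363). After rescaling to TPM, which moves the median of all tested genes to −0.19 in control and −0.31 in colonoids labelled KO, the *Eif2ak1* responses of 0.39 and 0.40 no longer passed, while relative to those medians they were 0.58 and 0.71. Of the exonic bases of *Eif2ak1*, 11.6% are shared with *Aimp2* and *Ankrd61* on the opposite strand. The labels do not settle whether the libraries kept strand, and without strand such reads cannot be told apart.

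*Eif2ak3* (PERK, ENSMUSG00000031668, chromosome 6, 70844515 to 70905245) moved the other way. Its FPKM was 9.55, 9.48 and 9.36 in control with vehicle and 7.35, 6.02 and 5.72 with hemin, and 8.97, 8.95 and 9.39 and then 6.96, 7.41 and 7.37 in the libraries labelled KO. No hemin-treated library reached the lowest vehicle-treated library of either genotype. The log2 fold change was −0.51 in control (SE 0.08, adjusted p = 0.000226) and −0.29 in colonoids labelled KO (SE 0.08, adjusted p = 0.00631), with an interaction of 0.22 (95% confidence interval −0.02 to 0.46, adjusted p = 0.174). Without control hemin replicate 1, the highest of its group, the interaction was 0.31 (adjusted p = 0.017) and the genotype difference under hemin 0.26 (adjusted p = 0.00651), and both passed. *Eif2ak4* (GCN2, ENSMUSG00000005102, chromosome 2, 118388618 to 118475234) was the lowest kinase, between 3.73 and 5.03 FPKM in all 12 libraries, and passed in none of the 5 comparisons. Its hemin response was 0.08 in control (95% confidence interval −0.14 to 0.29) and 0.00 in colonoids labelled KO (−0.21 to 0.22).

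The remaining eIF2α kinase, *Eif2ak2* (PKR, the sensor of double-stranded RNA), is no member of the set and was added so that the family is complete. Its mean FPKM was 10.2 ± 0.99 (SD, n = 3) in control with vehicle and 12.2 ± 1.1 with hemin, and 8.66 ± 0.21 and 14.4 ± 0.75 in those labelled KO. Its response was 0.67 in those labelled KO (adjusted p = 2.97e-05) and 0.23 in control (adjusted p = 0.0321), with an interaction of 0.44 (adjusted p = 0.0169). The control response no longer passed in 7 of 20 alternatives (0.06 at the lowest, after rescaling to TPM), among them those without control vehicle replicate 2 or 3 or control hemin replicate 3 (adjusted p = 0.0815, 0.128 and 0.0782). The response of those labelled KO (0.38, adjusted p = 0.0948) and the interaction (0.32, adjusted p = 0.56) did not pass after rescaling to TPM. FPKM is per length, so the 4 kinase mRNAs can be compared with each other. With vehicle the order by mean FPKM was *Eif2ak1*, *Eif2ak2*, *Eif2ak3*, *Eif2ak4* in control, where the *Eif2ak2* libraries (9.32 to 11.3 FPKM) overlapped those of *Eif2ak1* (10.9 to 11.9 FPKM) and of *Eif2ak3* (9.36 to 9.55 FPKM), and *Eif2ak1*, *Eif2ak3*, *Eif2ak2*, *Eif2ak4* in those labelled KO. With hemin the order was *Eif2ak1*, *Eif2ak2*, *Eif2ak3*, *Eif2ak4* in both, with no library of a kinase overlapping the next. *Eif2ak1* made up 32.6% ± 0.77 (SD, n = 3) of the summed kinase FPKM in control with vehicle and 43.0% ± 0.97 with hemin, and 32.0% ± 0.96 and 40.2% ± 1.6 in those labelled KO. The *Eif2ak3* share went from 27.0% to 15.9% in control and from 28.2% to 16.8% in those labelled KO. These shares do not depend on the scaling between libraries, and no test was made on them.

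**Figure D2:**
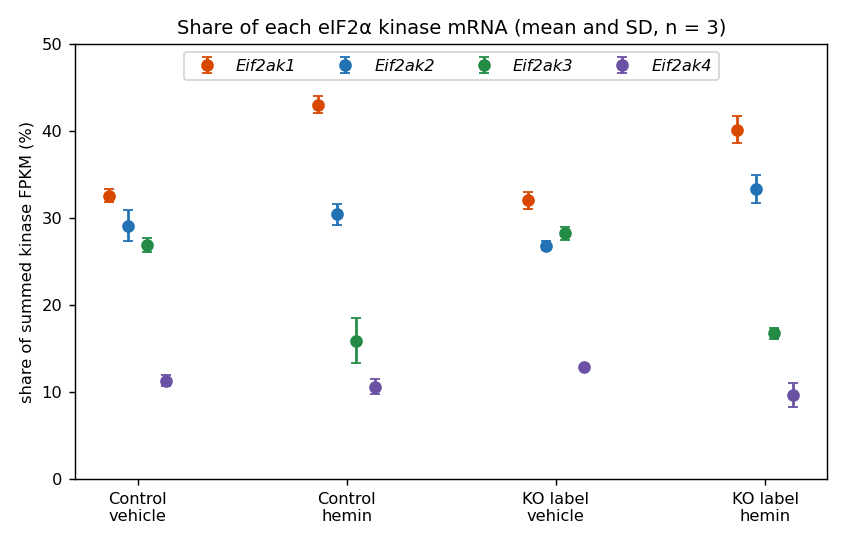
Share of each eIF2α kinase in the summed FPKM of the 4 kinases (y axis, %, linear) in the 4 groups (x axis). Points are means and whiskers SDs of 3 libraries; in both genotypes the *Eif2ak1* share was higher with hemin (43.0% and 40.2%) than with vehicle (32.6% and 32.0%), and the *Eif2ak3* share lower.

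Of the transcription factors, *Atf4* (ENSMUSG00000042406, chromosome 15, 80255184 to 80257541, plus strand) was the most abundant of the 10 genes, between the 95.8th and 97.3rd percentile of tested genes in the 4 groups. Its FPKM was 132, 124 and 130 in control with vehicle and 156, 145 and 88.0 with hemin. In the libraries labelled KO it was 84.3, 86.2 and 89.7 with vehicle and 135, 120 and 130 with hemin. The vehicle-treated libraries labelled KO lay below all control libraries with vehicle, and with hemin the genotypes overlapped. *Atf4* passed as lower in those labelled KO under vehicle (log2 fold change −0.56, SE 0.17, adjusted p = 0.024) and as raised by hemin in them (0.56, SE 0.17, adjusted p = 0.0144), a response that after rescaling to TPM was 0.22 and did not pass (adjusted p = 0.378), and which relative to the median of all tested genes was 0.53, against 0.56 as deposited. The vehicle difference had an adjusted p between 0.0509 and 0.0701 whenever any of the 6 vehicle-treated libraries was left out. It did not pass without the filter (adjusted p = 0.0541) or after rescaling to TPM (−0.42, adjusted p = 0.165). Relative to the median of all tested genes it was −0.58 both after TPM and as deposited. The SE is shared by all 4 groups. Without hemin-treated control replicate 3, which is outside this comparison, the difference was again −0.56, with an adjusted p of 1.73e-05.

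The control response of *Atf4* turned on a single library. It was −0.03 (SE 0.17, adjusted p = 0.902) with all libraries, and without hemin-treated control replicate 3 it was 0.23 and passed (adjusted p = 0.00984). The genotype difference under hemin likewise went from 0.02 (adjusted p = 0.929) to −0.23 (adjusted p = 0.0119), and the interaction from 0.59 (95% confidence interval 0.06 to 1.11, adjusted p = 0.103) to 0.33 (adjusted p = 0.011). Without control hemin replicate 1 the interaction was 0.74 and also passed (adjusted p = 0.0381). Hemin-treated control replicate 3 was also the lowest of its group for *Atf5*, *Chac1*, *Ppp1r15a* and *Eif2ak3* and the highest for *Eif2ak1*, *Eif2ak4* and *Ppp1r15b*. It held 17795 genes above 0, against 19294 and 19301 in the other libraries of the group; the part of this in the *Atf4* values was not tested.

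*Atf5* (ENSMUSG00000038539, chromosome 7, 44812256 to 44816658, minus strand), a paralog of *Atf4* whose translation is also favoured by eIF2α phosphorylation, separated the genotypes and not the treatments. Its FPKM was 18.5, 24.8 and 26.9 in control with vehicle and 27.7, 29.1 and 11.3 with hemin, and 7.83, 8.998 and 9.86 and then 10.3, 7.10 and 9.97 in the libraries labelled KO. Every library labelled KO lay below every control library of the same treatment. The mean was 2.63-fold lower in those labelled KO with vehicle (log2 fold change −1.29, SE 0.30, adjusted p = 0.00608) and 2.48-fold lower with hemin (−1.13, SE 0.30, adjusted p = 0.0128), where the difference no longer passed without control hemin replicate 1 or without hemin-treated replicate 2 labelled KO (adjusted p = 0.0512 and 0.0508), or with only the hemin-treated groups fitted (adjusted p = 0.073). Without hemin-treated control replicate 3 the genotype difference under hemin was −1.55 (adjusted p = 5.97e-05). The hemin response was −0.14 in control (95% confidence interval −0.80 to 0.52) and 0.02 in those labelled KO (−0.64 to 0.68).

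**Figure D3:**
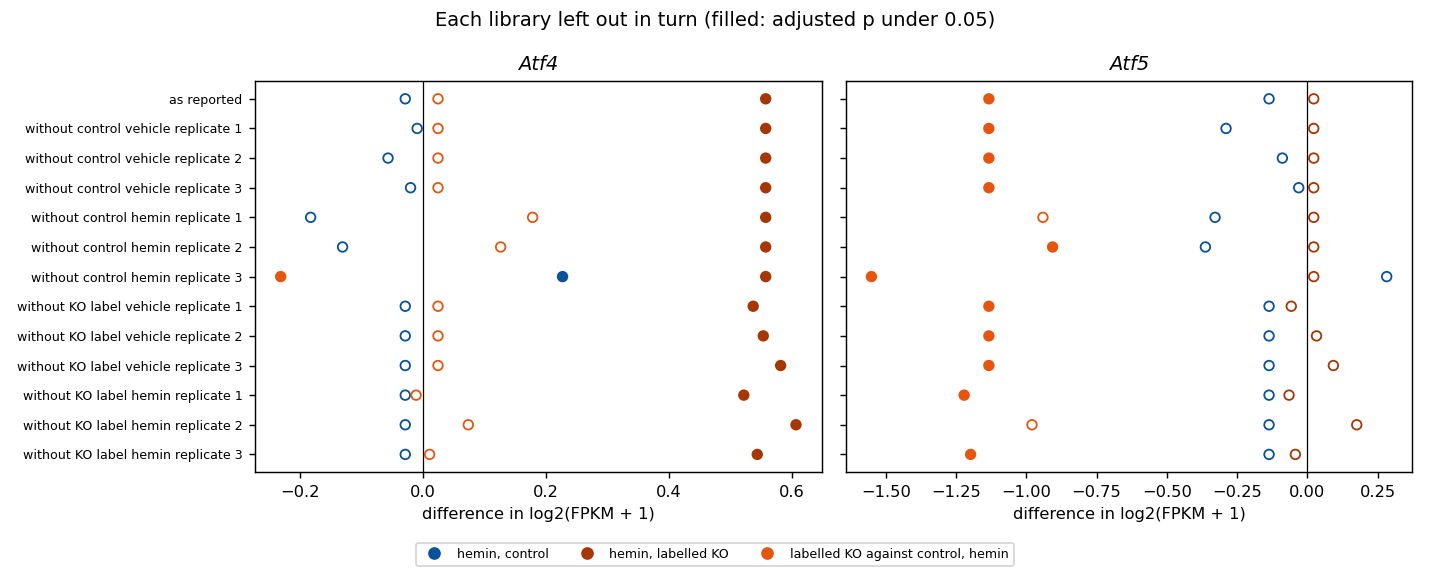
Differences of *Atf4* and *Atf5* in log2(FPKM + 1) (x axes) with all libraries and with each of the 12 libraries left out (y axis), for the hemin responses and the genotype comparison under hemin. Filled points have an adjusted p under 0.05; the *Atf4* control response is −0.03 as reported and 0.23 without hemin-treated control replicate 3.

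*Ddit3* (CHOP, ENSMUSG00000025408, chromosome 10, 127290774 to 127296288, plus strand), which encodes a transcription factor of the C/EBP family that ATF4 induces, rose in both genotypes. Its FPKM was 13.1, 14.4 and 14.0 in control with vehicle and 23.0, 17.3 and 20.5 with hemin. In the libraries labelled KO it was 5.28, 5.40 and 5.58 with vehicle and 13.6, 12.8 and 13.7 with hemin. Hemin separated the libraries of each genotype fully, and the hemin-treated libraries labelled KO reached only the level of control with vehicle. The log2 fold change was 0.51 in control (SE 0.09, adjusted p = 0.000659) and 1.16 in those labelled KO (SE 0.09, adjusted p = 9.3e-07), the interaction 0.65 (SE 0.13, adjusted p = 0.00337). Between the genotypes *Ddit3* was 2.55-fold lower in those labelled KO with vehicle (−1.21, adjusted p = 1.33e-06) and 1.52-fold lower with hemin (−0.56, adjusted p = 0.00057). After rescaling to TPM the control response (0.34, adjusted p = 0.141) and the interaction (0.585, adjusted p = 0.183) did not pass, while relative to the median of all tested genes the control response was 0.53, against 0.52 as deposited. Of its exonic bases 10.9% are shared with other genes, the second *Ddit3* entry and, on the opposite strand, *Gm4189* and *Mars*.

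The targets downstream of ATF4 carried the largest differences among the 10 genes. *Chac1* (ENSMUSG00000027313, chromosome 2, 119351229 to 119354381, plus strand) encodes an enzyme that cleaves glutathione. Its FPKM was 10.8, 11.7 and 13.2 in control with vehicle and 33.9, 27.5 and 21.8 with hemin. In the libraries labelled KO it was 1.61, 1.38 and 1.45 with vehicle (39 to 43 fragments each) and 33.5, 19.0 and 27.8 with hemin. Both genotypes thus lay in the same range under hemin, while their levels with vehicle were 8.03-fold apart. The mean rose 2.34-fold in control (log2 fold change 1.14, SE 0.19, adjusted p = 0.000539) and 18.1-fold in those labelled KO (3.45, SE 0.19, adjusted p = 9.43e-08). Its place among the tested genes went from the 13.9th percentile to the 82.2nd in those labelled KO and from the 65.0th to the 83.8th in control. The interaction was 2.31 (95% confidence interval 1.71 to 2.91, adjusted p = 0.000144), the vehicle difference −2.37 (adjusted p = 2.89e-06) and the hemin difference −0.06 (95% confidence interval −0.49 to 0.36, adjusted p = 0.829). Without control hemin replicate 1 the control response was 0.99, just under the threshold of 1, and still passed (adjusted p = 0.0025).

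*Trib3* (ENSMUSG00000032715, chromosome 2, 152337422 to 152344032, minus strand) encodes a pseudokinase induced by ATF4 and CHOP. It was the gene whose hemin responses had opposite signs by the widest margin among the 10. Its FPKM was 14.9, 14.7 and 18.2 in control with vehicle and 7.10, 5.13 and 5.32 with hemin. In the libraries labelled KO it was 0.489, 0.408 and 0.531 with vehicle, from 15 to 19 fragments each against 521 to 535 in control, and 5.39, 3.56 and 5.25 with hemin. Every hemin-treated control library lay below every vehicle-treated one, the reverse held for those labelled KO, and the hemin-treated groups overlapped. The mean fell 2.72-fold in control (log2 fold change −1.31, SE 0.15, adjusted p = 2.91e-05) and rose 9.94-fold in those labelled KO (1.94, SE 0.15, adjusted p = 8.64e-07). Under vehicle it was 33.4-fold lower in those labelled KO (−3.51, SE 0.15, adjusted p = 1.58e-08), which placed it at the 2.69th percentile of tested genes there and at the 72.4th in control. Under hemin the difference was −0.26 (95% confidence interval −0.58 to 0.06, adjusted p = 0.199), and the interaction was 3.25 (95% confidence interval 2.79 to 3.71, adjusted p = 2.04e-06). With *Trib3* at 0.476 FPKM on average in the vehicle-treated libraries labelled KO, the added 1 compresses its log2 values; with a pseudocount of 0.1 the response of those labelled KO was 3.05.

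*Ppp1r15a* and *Ppp1r15b* encode the subunits that direct protein phosphatase 1 to eIF2α and so end the response. *Ppp1r15a* (GADD34, ENSMUSG00000040435, chromosome 7, 45522916 to 45526268, minus strand), known as the inducible subunit, was 7.68, 7.79 and 7.95 FPKM in control with vehicle and 4.86, 5.04 and 3.47 FPKM with hemin. In the libraries labelled KO it was 5.06, 4.39 and 5.02 FPKM with vehicle and 9.69, 5.72 and 8.07 FPKM with hemin. As with *Trib3*, hemin separated the libraries downward in control and upward in those labelled KO, but here the hemin-treated genotypes did not overlap. The log2 fold change was −0.70 in control (SE 0.16, adjusted p = 0.00352) and 0.58 in those labelled KO (SE 0.16, adjusted p = 0.00862), a rise that after rescaling to TPM was 0.31 and did not pass (adjusted p = 0.292), and that relative to the median of all tested genes was 0.62, against 0.58 as deposited. The interaction was 1.28 (95% confidence interval 0.78 to 1.77, adjusted p = 0.00193). *Ppp1r15a* was the single gene of the 10 that passed as lower in those labelled KO with vehicle (−0.60, adjusted p = 0.0128) and as higher with hemin (0.68, adjusted p = 0.00653). Without vehicle-treated replicate 2 labelled KO the vehicle difference was −0.54 and missed the threshold (adjusted p = 0.0518), and with only the hemin-treated groups fitted the hemin difference missed it (adjusted p = 0.0611). Rescaled to TPM, the vehicle difference was −0.52 and did not pass (adjusted p = 0.145). Relative to the median of all tested genes it was then −0.68, against −0.62 as deposited. Without hemin-treated control replicate 3, which is outside that comparison, the vehicle difference was −0.60 and passed (adjusted p = 0.00487).

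*Ppp1r15b* (CReP, ENSMUSG00000046062, chromosome 1, 133131143 to 133139783, plus strand), known as the constitutive subunit, lay between 33.9 and 46.0 FPKM in all libraries. Its FPKM was 42.1, 43.4 and 42.4 in control with vehicle, 39.7, 38.3 and 44.9 with hemin, 36.3, 33.9 and 35.3 in those labelled KO with vehicle and 46.0, 43.2 and 43.7 with hemin. It rose 1.26-fold in those labelled KO (log2 fold change 0.32, SE 0.06, adjusted p = 0.00119) and was −0.06 in control (95% confidence interval −0.20 to 0.08), with an interaction of 0.38 (SE 0.09, adjusted p = 0.0113). Without hemin-treated control replicate 3 the control response was −0.12 and the genotype difference under hemin 0.18, and both passed (adjusted p = 0.0436 and 0.0115). After rescaling to TPM the response of those labelled KO had the opposite sign (−0.01, adjusted p = 0.977) and the interaction of 0.24 did not pass, but relative to the median of all tested genes the response was 0.30, against 0.33 as deposited. *Ppp1r15a* made up 15.5% ± 0.30 (SD, n = 3) of the FPKM of both subunits in control with vehicle and 9.90% ± 2.4 with hemin, and 12.1% ± 0.52 and 14.9% ± 2.9 in those labelled KO, where the treatments overlapped. Of the exonic bases of *Ppp1r15b* 11.4% are shared with *Gm26616* on the opposite strand.

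**Figure D4:**
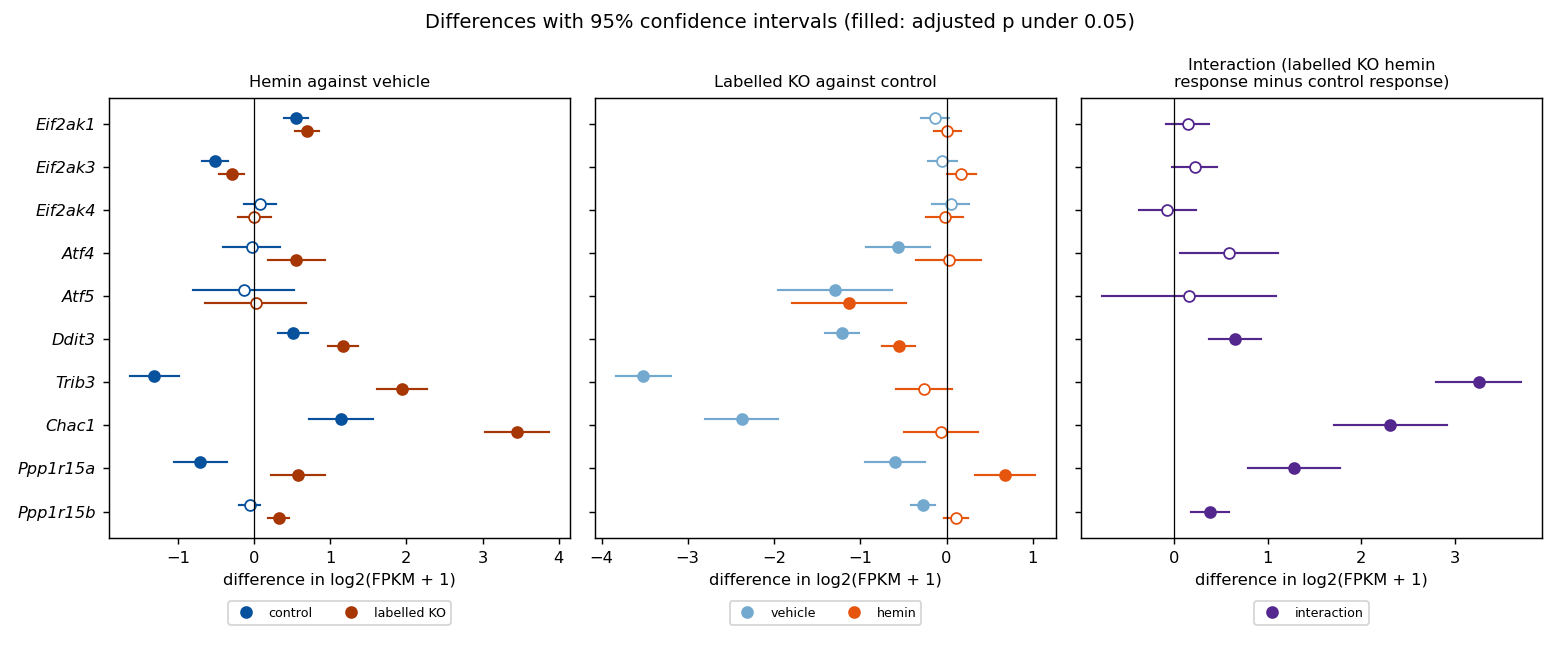
Differences of the 10 genes in log2(FPKM + 1) (x axes) for hemin against vehicle, labelled KO against control, and the interaction. Points are limma estimates, lines 95% confidence intervals and filled points an adjusted p under 0.05; the control and labelled KO hemin responses lie on opposite sides of 0, both filled, for *Trib3* (−1.31 and 1.94) and *Ppp1r15a* (−0.70 and 0.58), of which the *Ppp1r15a* rise did not pass after rescaling to TPM.

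*Trib3*, *Chac1* and *Ppp1r15a* were the 3 genes called in the interaction, and the 250 bases before their RefSeq transcript starts (GRCm38.p6) are shown to set their promoters beside their levels. Of the 10 genes, 9 matched the promoter table, and *Ppp1r15b* did not. Capitals mark matches on either strand to TGATGCAA (the composite site of ATF4 and C/EBP), TGACGCAA (the same with C for T) or TGACGTCA (the cAMP response element), and TGACNNNGC, the core of the antioxidant response element, was searched as well. These letters were chosen after the sequences had been seen. The windows are chr2:119350992-119351241 on the plus strand for *Chac1*, chr2:152344061-152344310 on the minus strand for *Trib3* and chr7:45526269-45526518 on the minus strand for *Ppp1r15a*.
Chac1: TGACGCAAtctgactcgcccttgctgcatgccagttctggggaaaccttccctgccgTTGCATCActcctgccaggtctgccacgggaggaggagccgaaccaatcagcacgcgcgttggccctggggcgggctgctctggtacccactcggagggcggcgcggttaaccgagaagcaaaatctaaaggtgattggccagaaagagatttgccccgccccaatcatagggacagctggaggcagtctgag
Trib3: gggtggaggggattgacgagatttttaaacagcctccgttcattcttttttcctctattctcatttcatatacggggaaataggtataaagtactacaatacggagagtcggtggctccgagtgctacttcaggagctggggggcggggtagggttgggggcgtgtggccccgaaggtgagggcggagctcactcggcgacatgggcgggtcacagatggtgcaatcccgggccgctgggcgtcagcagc
Ppp1r15a: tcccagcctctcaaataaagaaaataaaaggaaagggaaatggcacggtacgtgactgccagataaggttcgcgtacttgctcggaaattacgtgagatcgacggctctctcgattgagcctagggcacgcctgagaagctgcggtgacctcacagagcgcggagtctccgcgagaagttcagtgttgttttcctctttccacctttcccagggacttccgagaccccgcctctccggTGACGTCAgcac

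In the *Chac1* window TGACGCAA lay at −250 to −243 and the reverse complement of TGATGCAA at −193 to −186, counted from the transcript start with the first base before it as −1. *Ppp1r15a* held TGACGTCA at −12 to −5 and, past the printed bases, TGACNNNGC on the other strand from the 4th to the 12th base after the start, and *Trib3* held none of these letters in its 250 bases. Among the 32851 promoters of 300 bases in the table, which run 50 bases past the start, TGATGCAA was in 0.895%, TGACGCAA in 0.49%, TGACGTCA in 1.79% and TGACNNNGC in 12.4%. Among the 11312 of these that belong to tested genes the shares were 0.654%, 0.911%, 3.04% and 14.6%. Since the letters were chosen with the sequences seen, neither set of shares is a level of chance. In the other 6 matched genes of the 10 none of the 4 was found. A match says that the letters are present, not that a factor binds there, and no match covers only these windows.

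The wider programme of ATF4 was read from a list of 35 targets outside the 10 genes, of which 33 were tested. Hemin lowered more of them than it raised in control (18 against 4) and in colonoids labelled KO (14 against 10), where 26.7% of tested genes passed as lower and 23.2% as higher in control and 30.4% and 29.9% in those labelled KO, with medians of −0.35 and −0.15 on the log2 scale against medians of all tested genes of −0.01 and −0.0019. Under vehicle 20 passed as lower in those labelled KO, against 16.8% of tested genes, 4 of the 33 were higher by any amount, and the median was −0.47. The interaction passed for 12 as positive and 7 as negative (13.3% and 10.5% of tested genes), and 7 and 3 were called, against 2.57% and 2.56% of tested genes.

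The 7 positive calls were *Slc7a11*, *Slc3a2*, *Gdf15*, *Atf3*, *Adm2*, *Ddit4* and *Slc6a9*. *Slc7a11*, the light chain of the cystine transporter, rose 1.46 in control and 4.11 in those labelled KO on the log2 scale, and *Slc3a2*, its heavy chain, 0.48 and 2.76, with interactions of 2.65 (SE 0.13) and 2.28 (SE 0.17). The control rise of *Slc3a2* did not pass after rescaling to TPM (0.30, adjusted p = 0.258). *Gdf15*, a stress-induced cytokine, fell from 20.9 ± 2.3 to 1.64 ± 0.22 FPKM in control (SD, n = 3) and from 11.6 ± 0.66 to 9.21 ± 0.38 FPKM in those labelled KO, which gave an interaction of 2.75 (SE 0.13, adjusted p = 2.48e-07). *Atf3*, a transcription factor induced by ATF4, fell by 0.65 in control and rose by 1.30 in those labelled KO (interaction 1.96, SE 0.17). *Adm2* and *Ddit4*, an inhibitor of mTORC1, fell in control (−1.93 and −1.09) and were −0.16 and 0.38 in those labelled KO, neither of which passed (adjusted p = 0.455 and 0.258). *Adm2* rested on 0 to 5 fragments in the hemin-treated controls, and its fitted fall ran to −4.61 and its interaction to 3.99 with limma-voom. Without hemin-treated control replicate 3, the control fall of *Ddit4* was −0.70, past the p threshold but no longer called, and its response in those labelled KO passed (0.38, adjusted p = 0.0258), as it did with only those groups fitted (adjusted p = 0.0317). The interaction of *Ddit4* did not pass after rescaling to TPM (1.34, adjusted p = 0.0745). *Slc6a9*, a glycine transporter, was −0.13 in control (adjusted p = 0.385) and rose by 1.07 in those labelled KO. Like *Trib3* and *Ppp1r15a*, *Atf3* passed as lower in control and as higher in those labelled KO.

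The 3 negative calls were *Phgdh*, *Aldh18a1* and *Slc1a5*. *Phgdh*, the entry enzyme of serine synthesis, fell from 53.7 ± 4.1 to 28.1 ± 4.3 FPKM in control (SD, n = 3) and from 44.8 ± 3.6 to 9.33 ± 0.56 FPKM in those labelled KO, with an interaction of −1.23 (SE 0.15, adjusted p = 0.000203). *Aldh18a1*, of proline synthesis, fell by 0.30 in control and by 1.46 in those labelled KO, and *Slc1a5*, a glutamine transporter, was 0.11 in control (adjusted p = 0.462) and fell by 0.90 in those labelled KO. Without hemin-treated control replicate 3 the control response of *Slc1a5* was 0.26 and passed (adjusted p = 0.01). The interactions were −1.16 (SE 0.10) and −1.01 (SE 0.17). Genes listed as ATF4 targets thus moved in opposite directions in the same libraries in which *Chac1*, *Trib3*, *Ddit3* and *Atf4* rose. TGATGCAA was in the promoters of 8 of the 30 genes of this list that matched the table, *Atf3*, *Fgf21*, *Jdp2*, *Nupr1*, *Pycr1*, *Slc1a4*, *Slc7a11* and *Vldlr*, and in those of 279 of all 27025 genes of the table. TGACNNNGC was in 10 of the 30, against 3781 of all genes, and TGACGCAA and TGACGTCA in 0, against 152 and 549 of all genes. Among the 8893 tested genes that matched, TGATGCAA was in 69, TGACNNNGC in 1521, TGACGCAA in 95 and TGACGTCA in 321.

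**Figure D5:**
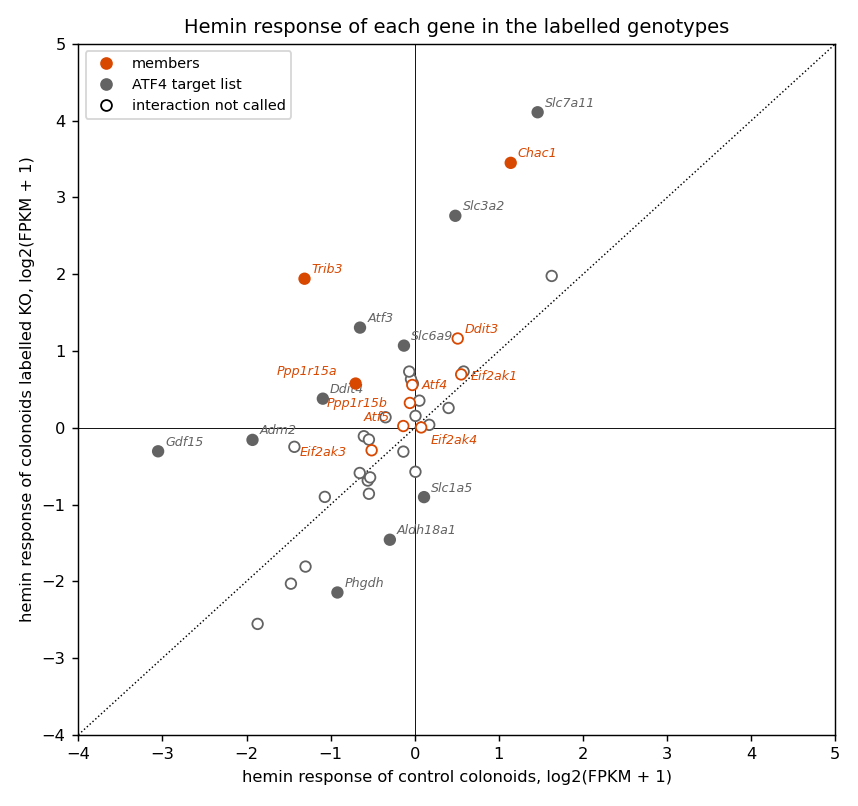
Hemin response in log2(FPKM + 1) of control colonoids (x axis) and of colonoids labelled KO (y axis) for the 10 genes (orange) and the 33 tested ATF4 targets (grey); the dotted line marks equal responses and filled points a called interaction. The axes share the vehicle and hemin groups with the interaction by construction; *Trib3*, *Chac1* and *Ppp1r15a* lie above the line, and *Phgdh*, *Aldh18a1* and *Slc1a5* below it.

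The machinery around the kinases was read from a list of its own. Of 20 tested genes for PKR, eIF2, its exchange factor eIF2B, the regulators of the kinases and the catalytic subunits of protein phosphatase 1, hemin raised 1 and lowered 5 in control and raised 4 and lowered 7 in those labelled KO (of tested genes, 23.2% and 26.7% passed in these directions in control and 29.9% and 30.4% in those labelled KO), and 1 was called, as higher in those labelled KO (4.87% of tested genes were). That gene was *Eif2s2*, the β subunit of eIF2, in those labelled KO at 57.8 ± 0.66 FPKM with vehicle and 127 ± 2.8 FPKM with hemin (SD, n = 3; log2 fold change 1.12, adjusted p = 1.93e-05), and 0.13 in control (adjusted p = 0.431). *Dele1*, whose protein relays mitochondrial stress to HRI, fell in both genotypes (−0.62, adjusted p = 0.000303, and −0.73, adjusted p = 6.46e-05). Aminoacyl-tRNA synthetases, which ATF4 can also drive, fell in the main: 7 of 12 passed as lower in control and 8 of 12 in those labelled KO, against 26.7% and 30.4% of tested genes, and 1 rose in each. Named for the size of their responses are *Mars* (−0.62 and −0.90), *Gars* (−0.68 and −0.60) and *Iars* (−0.32 and −0.58), all of which passed.

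Across the 12 libraries the 10 genes did not move as a single block, and the following correlations of log2(FPKM + 1) are descriptions over libraries that share 4 group means. *Ddit3* and *Chac1* were the closest pair (Pearson r = 0.93), and *Eif2ak1* and *Chac1* were at 0.85. *Eif2ak1* and *Eif2ak3* ran opposite (−0.87). *Ppp1r15a* was at −0.03 with *Eif2ak1* and 0.13 with *Ddit3*, and *Atf5* at −0.02 with *Eif2ak1*.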

How the data were processed

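The authors deposited one table of FPKM values per gene for 12 mouse colonoid libraries. Per the labels and the submitters' processing notes, the libraries were made from poly-A RNA, and fastp, HISAT2 2.0.5, featureCounts 1.5.0-p3 and the mm10 build were used. Whether the libraries kept strand is not settled by the sources used here. The steps between low values let each FPKM be turned back into a fragment number, which came out whole for 100% of values (tolerance 0.001) and gave the depths. The deposited values had already been scaled between libraries, since their median-of-ratios factor was 1.00869 in each. No library repeated another of its group, since the chi-square per degree of freedom between replicates was at least 1.975.

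Samples were grouped by the genotype and treatment labels, 3 libraries in each of 4 groups. The fit ran in R 4.3.3 with limma 3.58.1 on log2(FPKM + 1), over the 12740 genes with at least 1 FPKM in at least 3 libraries, with 1 mean per group, a trend in the moderated variance and Benjamini-Hochberg adjustment over all tested genes within each of 5 comparisons. The 95% confidence intervals used limma's moderated degrees of freedom, which add prior ones to the 8 residual ones. The scripts were tested on simulated data. Figures were drawn with Python 3.11.15 and matplotlib 3.10.9. Promoters came from RefSeq (GRCm38.p6).

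The members and the lists were chosen with earlier results of these data known. Named were the 10 members, *Hmox1*, *Eif2ak2*, each list gene called in the interaction and, where a list had fewer than 3 of these, its largest hemin responses up to 3, and the 5 genes most correlated with each of *Eif2ak1*, *Atf4*, *Ddit3* and *Chac1*. Alternatives were a pseudocount of 0.1, no filter, TPM, limma-voom on the recovered fragments, moderation without the trend, only the groups compared, a replicate block and each library left out. TPM without *Gm23935* was added after the data were seen.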

Additional observations from a re-analysis of the deposited data

Results flagged for a closer look

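For 20 genes, counted among the 10, *Hmox1* and those named from the 5 lists, the hemin response of colonoids labelled KO differed from that of control, tested as the interaction in limma (adjusted p under 0.05). With 3 libraries a group, single libraries far from their group were not tested for.

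Among the 10 genes the difference on the log2 scale was 3.25 for *Trib3*, 2.31 for *Chac1*, 1.28 for *Ppp1r15a*, 0.652 for *Ddit3* and 0.381 for *Ppp1r15b*, and the last 2 did not pass after rescaling to TPM. The hemin response of *Hmox1* itself differed by 2.81. It was lower in those labelled KO with vehicle (−1.27), as its label says, and higher with hemin (1.53), against the label. The FPKM of the whole gene does not show how complete the deletion was.

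Among the ATF4 targets it was 2.75 for *Gdf15*, 2.65 for *Slc7a11*, 2.28 for *Slc3a2*, 1.96 for *Atf3*, 1.77 for *Adm2*, 1.47 for *Ddit4* and 1.2 for *Slc6a9*. It was negative for *Slc1a5* (−1.01), *Aldh18a1* (−1.16) and *Phgdh* (−1.23). *Ern2*, the IRE1 paralog of mucous epithelium, differed by −1.47. *Eif2s2* (0.994), *Dnajb9* (0.952) and *Eif2ak2* (0.439) passed as well, though not after rescaling to TPM.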

How the results depend on the processing

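Of the 990 values of the 10 genes recomputed over 50 results, 925 kept their direction and their side of the threshold, 26 kept their direction but no longer passed, 6 kept it and newly passed and 33 changed sign, of which 2 (*Atf4* in control and under hemin without hemin-treated control replicate 3) newly passed and 1 (*Ppp1r15b* in those labelled KO after rescaling to TPM) no longer did; of the 1245 values of the other named genes the numbers were 1221, 14, 3 and 7. In each comparison except the interaction, several of these alternatives cannot change the log2 fold change, only its adjusted p. They are no filter, moderation without the trend, only the groups compared, the replicate block and the removal of a library outside the comparison. The counts include them, so they do not measure how stable the directions are. Where a value moved the cause was not tested. After rescaling to TPM the genes passing numbered 4000 in the control response (6359 as reported), 2269 under vehicle (4362), 2109 under hemin (4383) and 909 in the interaction (3031), and those called 1705 in control (1033) and 2737 in those labelled KO (1648). Of the 10 genes, 1 was then called in control, 4 passed in those labelled KO, 4 under vehicle and 3 in the interaction. TPM also moved the median of all tested genes (−0.19 in control, −0.31 in those labelled KO), relative to which *Eif2ak4* was 0.10 in control and −0.0014 in those labelled KO, *Atf5* 0.0068 and *Ppp1r15b* 0.30 there. Without that correction TPM turned *Eif2ak4* (−0.0898 in control, −0.31 in those labelled KO), *Atf5* (−0.30) and *Ppp1r15b* (−0.0086) in those labelled KO, *Slc1a5* (−0.0801), *Eif2s2* (−0.0638) and *Dnajb9* (−0.0493) in control, and *Eif2ak1* (0.0019) and *Eif2ak3* (0.0897) under vehicle. With *Gm23935* left out of the TPM sum 1606 genes were called in control and 2475 in those labelled KO, where 5 of the 10 passed, and the turned values were *Eif2ak4* −0.0137 and −0.21, *Atf5* −0.20, *Eif2ak3* 0.0088 under vehicle, and *Eif2ak1* −0.0433 and *Atf4* −0.0293 under hemin. A pseudocount of 0.1 called 1760 genes in control and 1342 under hemin (766 as reported). Limma-voom called 1822 in control, 2600 in those labelled KO and 1402 under hemin, with *Atf5* −0.0115 in those labelled KO and *Eif2ak1* −0.0124 under hemin. With only the groups compared 2728 genes passed under hemin, and of the 10 genes 1 passed and 0 were called. With each library left out, the 10 genes called ranged from 1 to 2 in control and from 0 to 1 under hemin, those passing under hemin from 2 to 5, and the genes passing in the interaction from 2363 to 4726. In the control response the ranges were −0.0238 to 0.14 for *Eif2ak4*, −0.18 to 0.23 for *Atf4*, −0.36 to 0.28 for *Atf5*, −0.21 to 0.0278 for *Slc6a9*, −0.0061 to 0.26 for *Slc1a5*, −0.0427 to 0.26 for *Eif2s2* and −0.0697 to 0.30 for *Dnajb9*. In those labelled KO they were −0.0824 to 0.0682 for *Eif2ak4* and −0.0651 to 0.18 for *Atf5*. Under hemin they were −0.0611 to 0.0805 for *Eif2ak1*, −0.11 to 0.0774 for *Eif2ak4*, −0.23 to 0.18 for *Atf4* and −0.24 to 0.16 for *Chac1*, and in the interaction −0.16 to 0.0283 for *Eif2ak4* and −0.26 to 0.39 for *Atf5*. Replicate numbers were not seen to mark pairs: the deviations of same-numbered libraries correlated at −0.04 on average (−0.33 to 0.18, 18 pairs). Libraries of other number and group were at 0.02 (−0.395 to 0.344, 36 pairs). Such averages cannot exclude pairing in part of the groups, and replicate 1 held the most *Gm23935* in control with vehicle (16.8%) and with hemin (29.0%). With the replicate block 1028, 1649, 863, 761 and 639 genes were called in the 5 comparisons, against 1033, 1648, 866, 766 and 654, and all 10 genes kept their side of the threshold.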

Other observations

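Beside the eIF2α arm, the other arms of the unfolded protein response, those of IRE1 and ATF6, were read from 18 tested genes. Under hemin 12 passed as lower and 3 as higher in control (26.7% and 23.2% of tested genes did), and 10 and 6 in colonoids labelled KO (30.4% and 29.9%), with medians of −0.42 and −0.28 on the log2 scale. *Pdia6*, a disulfide isomerase of the endoplasmic reticulum, fell by 1.03 and 1.00. *Ern2* had a mean of 12.7 FPKM with vehicle and 1.71 FPKM with hemin in control and 40.2 and 1.89 FPKM in those labelled KO. *Dnajb9*, a chaperone induced by XBP1, was 0.13 in control (adjusted p = 0.467) and rose by 1.09 in those labelled KO.

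Of 8 mitochondrial chaperones and proteases 5 passed as lower and 1 as higher in control (26.7% and 23.2% of tested genes), and 6 and 2 in those labelled KO (30.4% and 29.9%). Lower in both were *Hspa9* (−0.95 and −0.78), *Lonp1* (−0.94 and −0.90) and *Hspd1* (−0.85 and −0.89). *Eif2ak1* rose and *Dele1* fell in the same libraries.

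The genes whose levels followed *Eif2ak1* most closely over the 12 libraries, which share 4 group means, were *Ell2* (Pearson r = 0.992), *Ginm1*, *Ugt2b34*, *Herpud2* and *Ypel5*. For *Atf4* they were *Eif4ebp1* (0.987), *Pacsin3*, *Pxn*, *Rras* and *Arpc1b*, for *Ddit3* they were *Mall* (0.993), *Cyp4f14*, *Me1*, *Asap1* and *Abcc5*, and for *Chac1* they were *Tsku* (0.993), *Slc25a20*, *Ifngr2*, *Coro2a* and *Efnb2*.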
